A study of Mus musculus with 2 samples.

Results

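The genes described here encode the non-collagen matrix of cartilage. They comprise the large proteoglycan aggrecan (Acan), link protein (Hapln1), 3 matrilins (Matn1, Matn3 and Matn4), cartilage oligomeric matrix protein (Comp), chondromodulin (Cnmd), chondroadherin (Chad), Ucma, and Chst11, an enzyme that sulfates chondroitin chains. These 10 genes were picked as a named set, and each had 1 probe set of its own among the 19938 genes that the platform annotation names singly. They were compared between a wild-type mandible of the BALB/c strain and a BALB/c mandible null for both Myf5 and Myod, both taken from fetuses at E18.5, shortly before birth. The products of Myf5 and Myod (MyoD) turn progenitor cells into skeletal muscle, and the series concerns the role of skeletal muscle in the growth of the lower jaw. Each genotype was measured on 1 Affymetrix array from Trizol-extracted total RNA, and the sources used here do not say how many fetuses made up a sample. All differences therefore compare a pair of arrays, have no replicate check and carry no p-value.

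Cartilage takes its stiffness against compression from aggrecan, whose many chondroitin sulfate chains hold water. Aggrecan is anchored along hyaluronan, and link protein stabilises that bond. Matrilins, Comp and chondroadherin connect the collagen fibrils to the proteoglycans and to the cells, and chondromodulin is a cartilage glycoprotein that inhibits blood vessel growth. In the fetal mandible, cartilage is found in Meckel's cartilage, the rod that guides the forming jaw bone, and in the condylar cartilage, a secondary growth cartilage at the jaw joint.

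Values are signals on the log2 scale, on which a difference of 1 is a 2-fold difference, and differences are given as double knockout minus wild type. A floor was set at each array's median over probe sets with an annotated gene, 6.18 for the wild type and 6.19 for the double knockout. Genes over this floor on 1 array or both are called measured. Lower values were set to the floor, and where that applied to 1 array only, the fold is a bound, written "at least". Of the 10 genes, 4 were above the floor on both arrays (Acan, Hapln1, Matn4 and Chst11), 2 only in the double knockout (Ucma and Chad) and 4 on neither (Matn1, Matn3, Comp and Cnmd). Cartilage was represented on both arrays by its main collagen Col2a1 and by Acan, while Matn1, Matn3 and Cnmd, which also mark chondrocytes, were not above the floor. A gene that was measured only through the double-knockout array had to be higher there, so the counts over measured genes below are descriptions and not support.

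Of the 6 measured genes, all except Ucma differed by less than 2-fold, with values under the floor set to it. On the deposited values, without a floor, 8 of the 10 were higher in the double knockout, with a median difference of 0.22, against 58.4% of all 19938 genes and a median of 0.056. After all genes were shifted to a median difference of 0, the count was 7 of 10, because Matn3 changed sign. Both counts take in Matn1, Matn3, Comp and Cnmd, which were below the floor on both arrays and give no comparison of levels. Of the 6 measured genes, 5 were higher and 1 was lower, beside 67.0% higher among all 10393 measured genes, a share that was 63.3% after quantile normalisation and 50% by construction with the median set to 0. The median difference was 0.42 over the 6 measured genes and 0.098 over all measured genes. Only Ucma was at least 2-fold higher, a size reached by 0.510% of all measured genes, and 0 of the 6 were at least 2-fold lower, beside 2.73%. For scale, the differences of the 2 brightest probe sets of one gene disagreed with an SD of 0.23 over 532 genes, which leaves out variation between animals and hybridisations. The central 95% of all measured genes lay between -1.09 and 0.62, and Ucma and Chst11 lay above that range.

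**Figure D1:**
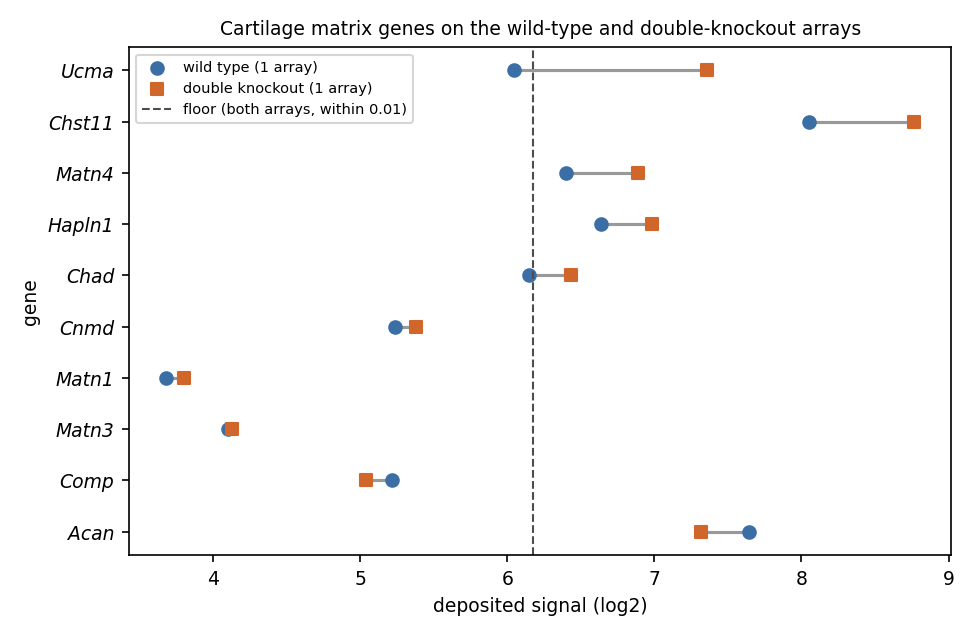
Deposited log2 signal (x axis) of each of the 10 genes (y axis, ordered by difference) on the wild-type array (blue circles) and the double-knockout array (orange squares), 1 array each, with the floor of 6.18 as a dashed line. Ucma spans the widest gap, Acan and Comp are the genes with the double-knockout square to the left, and Matn1, Matn3, Comp and Cnmd lie left of the floor on both arrays.

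Aggrecan and its link protein differed in opposite directions. Acan had a signal of 7.64 in wild-type and of 7.32 in double-knockout tissue, 1.25-fold lower, with a difference of -0.32. It was the only measured gene of the 10 that was lower in the double knockout, and 966 of the 10393 measured genes were at or below its difference. Hapln1, which locks aggrecan to hyaluronan, gave 6.64 in wild-type and 6.98 in double-knockout tissue, 1.27-fold higher. Both directions were the same under quantile normalisation and with the median of all genes set to 0, but neither rescaling could have reversed them. The shift of the median was 0.098 and the sorted values of the arrays differed by at most 0.22, less than either difference.

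Chst11 differed most among the 4 genes above the floor on both arrays. It encodes a Golgi enzyme that puts sulfate on the 4-position of chondroitin and is needed for normal cartilage growth plates. Its signal was 8.05 in wild-type and 8.76 in double-knockout tissue, 1.64-fold higher, with a difference of 0.71 that 159 of 10393 measured genes reached or exceeded. At a threshold of 1.5-fold, Chst11 and Ucma were the genes called higher, beside 3.07% of all measured genes, and 0 were called lower, beside 5.11%.

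The 3 matrilins were unevenly measured. Matrilins are adaptor proteins built around von Willebrand factor A domains, and Matn1 and Matn3 are largely confined to cartilage whereas Matn4 is also made in other connective tissues. Matn4 gave 6.40 in wild-type and 6.89 in double-knockout tissue, 1.40-fold higher, with both values above the floor. Matn1 was deposited at 3.68 and 3.80, and Matn3 at 4.10 and 4.13. Both lay more than 2 log2 units under the floor on each array, so these values show no level that could be compared. Matn2, the fourth matrilin, which is found in many tissues, was 1.18-fold lower (8.02 against 7.78).

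Ucma showed the largest difference of the 10. It encodes a small secreted protein of the upper growth plate that is rich in gamma-carboxylated glutamate. The signal was 6.05 in the wild type, 0.13 below the floor, and 7.36 in the double knockout, which is at least 2.26-fold higher. On the deposited values without a floor the difference was 1.31, or 2.48-fold. Across all measured genes 31, Ucma among them, were at or above its floored difference of 1.18. A shift of all genes to a median difference of 0 takes 0.098 off every difference, which put the bound at 1.08, past 2-fold by subtraction alone. Mgp, matrix Gla protein, another carboxylated inhibitor of calcification, was 1.23-fold higher (7.08 against 7.38).

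**Figure D2:**
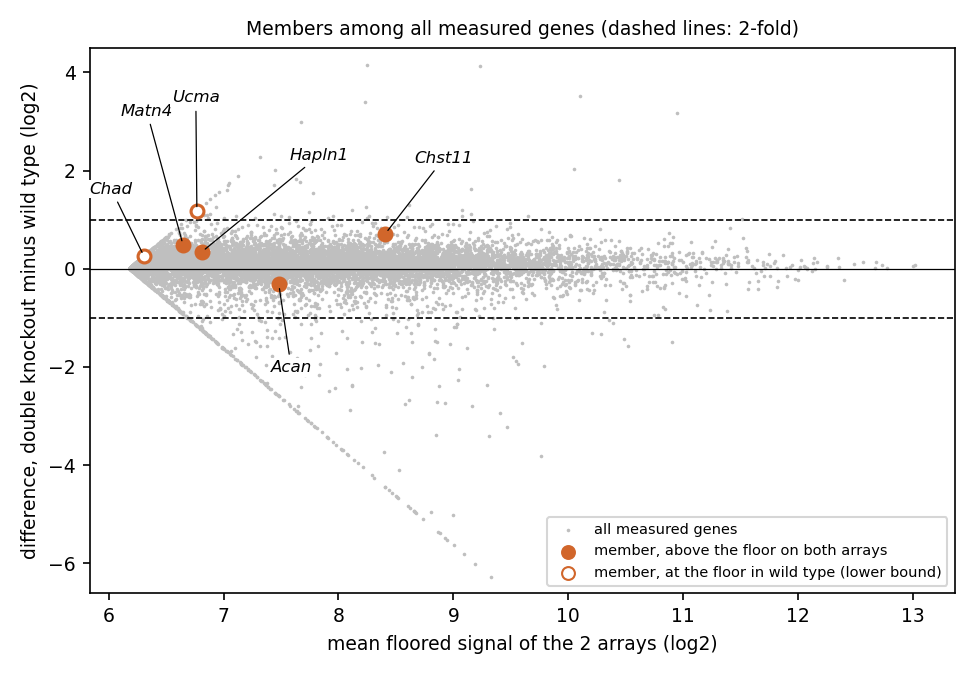
Difference between double knockout and wild type (log2, y axis) against the mean floored signal of both arrays (log2, x axis) for all 10393 measured genes (grey) and the 6 measured genes of the group (orange; open where the wild-type value is at the floor). Ucma lies above the upper 2-fold line, the other 5 lie between the 2-fold lines, and Acan alone is below 0; the slanted edges of the grey cloud are genes with 1 value at the floor.

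Chondroadherin, a leucine-rich protein that binds integrins and collagen, lay close to the floor. Chad gave 6.15 in the wild type, 0.028 below the floor, and 6.43 in the double knockout, at least 1.19-fold higher, a difference of 0.26 that 2329 measured genes reached or exceeded. Comp, a pentameric thrombospondin of cartilage and tendon, was deposited at 5.22 in wild-type and 5.04 in double-knockout tissue. Cnmd was deposited at 5.23 and 5.38. Comp and Cnmd were under the floor on both arrays, so their deposited differences of -0.18 and 0.15 are no comparison of levels.

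Of the relatives of Comp and Cnmd outside the 10, Tnmd and Thbs4 were lower in the double knockout by over 2-fold. Tenomodulin (Tnmd), a tendon membrane protein of the same BRICHOS-domain family as chondromodulin, was 9.17 in wild-type and 6.67 in double-knockout tissue, a difference of -2.49. Thbs4, a thrombospondin of tendon and muscle with the same pentameric form as Comp, was 9.75 and 7.91, a difference of -1.84, and Thbs3 was 8.21 and 7.30, a difference of -0.91. Thbs1 and Thbs2, the trimeric thrombospondins, differed by 0.01 and -0.08, and the 0.01 turned negative under both other scalings. Of the 6 relatives, all above the floor on both arrays, 2 were at least 2-fold lower and 0 higher, beside 2.73% and 0.510% of all measured genes. With the median of all genes set to 0 the lower count was 3, with Thbs3 added, beside 3.07%. Tnmd and Thbs4 also stand in the list of tendon markers below. Because Comp and Cnmd were below the floor, a difference of the same size could not have been seen in them as a loss.

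**Figure D3:**
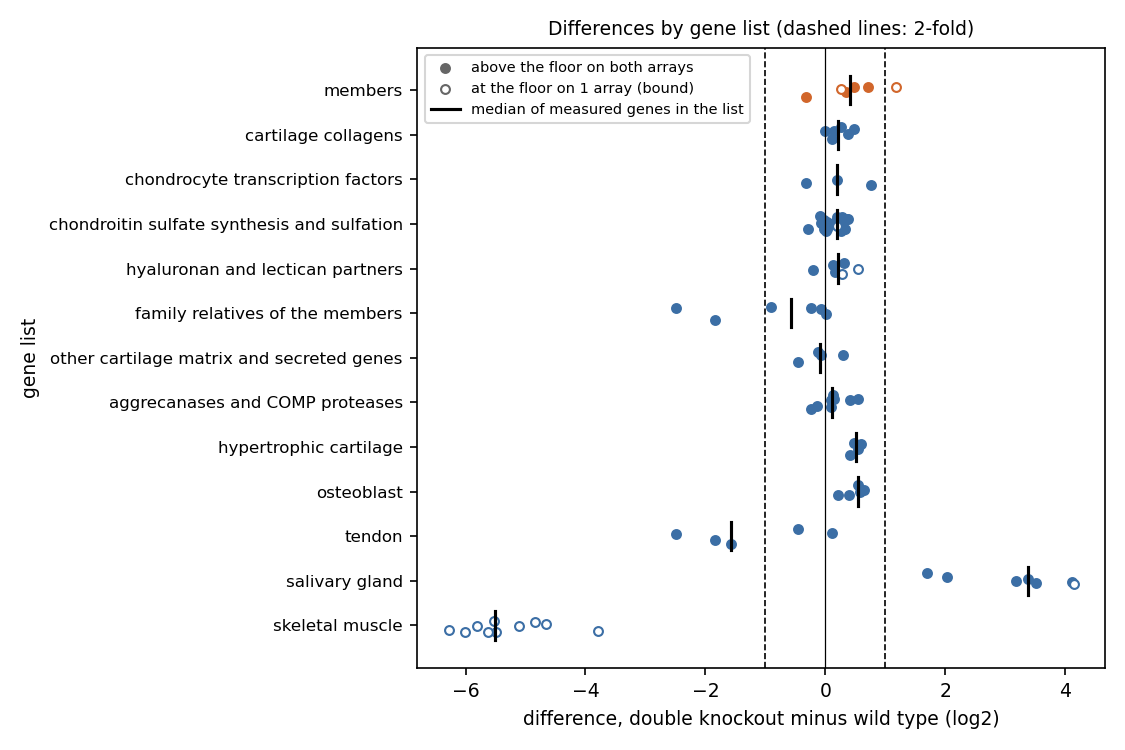
Difference between double knockout and wild type (log2, x axis) for the measured genes of each list (y axis), with open circles for bounds, a black bar for the list's median and dashed lines at 2-fold. The lists of cartilage matrix and its synthesis lie within 2-fold of 0 apart from Ucma, whereas skeletal muscle genes lie far to the left, 3 of the 5 measured tendon genes left of the 2-fold line, and salivary gland genes to the right.

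The collagens that form cartilage fibrils with these proteins differed in the same range. All 6 measured members of a list of 7 were higher as deposited, 0 of them 2-fold, with a median of 0.21, beside 67.0% of all measured genes higher. Under either other scaling 5 were higher, since Col27a1 (7.68 against 7.69) changed sign. Col2a1, the main fibril collagen of cartilage, was 8.77 and 9.26, a difference of 0.49. Col11a2 differed by 0.38, Col9a2 by 0.27, Col9a3 by 0.15 and Col11a1 by 0.12, and Col9a1 was under both floors (6.02 and 6.02). Acan thus differed by 0.81 log2 units less than Col2a1.

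Transcription factors of chondrocytes were mixed. Sox9, the regulator that directly activates Acan, Hapln1, Matn1 and Col2a1 in chondrocytes, was 8.37 and 9.13, a difference of 0.76. Sox6, a partner of Sox9, was 7.49 and 7.17, a difference of -0.32. Trps1 differed by 0.20, while Sox5 and Nkx3-2 were below the floor on both arrays. Of the 3 measured factors, 2 were higher and 1 lower under all 3 scalings, beside 67.0% of all measured genes higher as deposited.

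Enzymes and transporters that build and sulfate chondroitin chains were measured for 25 of 29 listed genes. None of the 25 differed 2-fold in either direction. As deposited 20 were higher and 5 lower with a median of 0.19, a split of 17 and 8 after quantile normalisation and of 15 and 10 with the median of all genes set to 0, where the list's median was 0.093. The shares of all measured genes that were higher were 67.0%, 63.3% and 50% in the same order. Papss1, which makes the sulfate donor, differed most, by 0.38, followed by the sulfate transporter Slc26a2 (0.36), the nucleotidase Cant1 (0.33) and the Golgi phosphatase Bpnt2 (0.32). Chsy1, a chain-polymerising synthase, and Ugdh, which supplies the glucuronate, were the brightest and differed by 0.19 and 0.28. B4galt7, which adds the first galactose of the linker, was at least 1.15-fold higher. Chst11's functional relatives, named after their values were seen, differed by less: Chst13 by 0.22 and Chst12 by -0.28.

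Among the hyaluronan partners of aggrecan, 6 of 14 listed genes were measured and 5 were higher, 0 of them 2-fold, with the same counts under both other scalings. Of all measured genes, 67.0% were higher as deposited. Versican (Vcan), the widely expressed relative of aggrecan, was 10.92 and 11.24, a difference of 0.32 of about the size of Acan's and opposite to it. The hyaluronan synthase Has2 differed by -0.20, the hyaluronan receptor Cd44 by 0.16 and the hyaluronidase Cemip2 by 0.13. Has3 was at least 1.46-fold and Cemip at least 1.21-fold higher. Hyal1 had no probe set of its own here. The other 7, among them the brain lecticans Ncan and Bcan and the other 3 link proteins, were below the floor on both arrays.

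Of 12 other matrix and secreted genes of cartilage and joints, 8 were below the floor on both arrays. Of the 4 measured, fibromodulin (Fmod), also a tendon proteoglycan, differed by -0.45, Prelp by -0.12 and perlecan (Hspg2) by -0.07, and Mgp by 0.30. On the deposited values without a floor, 3 of the 12 were higher and 9 lower, with a median of -0.10. Of all 19938 genes, 58.4% were higher without a floor, with a median of 0.056. The 3 of 12 is opposite in direction to the 8 of 10 higher above, but both counts take in genes below the floor on both arrays. With the median of all genes set to 0, 1 of the 12 was higher, and after quantile normalisation 4 were. Of 9 proteases and inhibitors that act on aggrecan or Comp, 8 were measured and 0 differed 2-fold. As deposited 6 were higher, beside 67.0% of all measured genes, and with the median of all genes set to 0 it was 5, beside 50%. The collagenase Mmp13 differed by 0.55, Adamts9 by 0.42, Adamts1 by -0.24 and Adamts12 by -0.14. Adamts4 and Adamts5, the main aggrecanases, differed by 0.10 and 0.13, and the 0.10 was just under 0 with the median of all genes set to 0. Adamts5 was named after its value was seen, and Adamts4 likewise lies outside the naming rule for longer lists given below.

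Markers of skeletal muscle, tendon and salivary gland differed between the arrays by more in their summed signal than the cartilage genes did, and osteoblast markers by a similar factor. The summed linear signal of 10 skeletal muscle markers was 32114 in wild-type and 374 in double-knockout tissue, where all 10 were below the floor; the brightest, Actc1 and Acta1, were 12.47 and 12.20 in the wild type. The 6 tendon markers summed to 2688 and 1189, but Mkx was not lower (7.47 against 7.58) and Scx was below the floor on both arrays. The 7 salivary gland markers summed to 1867 and 16866, each of these 7 at least 2-fold higher, beside 0.510% of all measured genes. The 5 osteoblast markers with a probe set summed to 8407 and 10881, and all 5 were higher, with a median of 0.55. Of the hypertrophic cartilage markers, 4 of 5 with a probe set were measured and all 4 were higher, with a median of 0.51. Both counts stand beside 67.0% of all measured genes higher. Among the hypertrophic markers were Col10a1 (6.28 against 6.76), Panx3 (9.89 against 10.49) and Mmp13, which is also in the list of proteases. Ihh was below the floor on both arrays, and the wild-type signal of Col10a1 cleared its floor by only 0.11. Whether the hypertrophic markers differed apart from the osteoblast markers, whose median was similar, was not tested. The 10 cartilage matrix genes themselves summed to 891 and 1196. Most of that rise lay in Ucma and in Chst11, which encodes an enzyme. Acan was lower, and the sum includes genes below the floor on both arrays. The part of these shifts in tissue make-up in the cartilage values was not tested, and in whole-mandible RNA more cartilage cells and more RNA per cell cannot be told apart. Of the knocked-out genes, Myf5 was 6.31 in the wild type and below the floor in the double knockout (4.95), and Myod1 was 7.14 and 6.49, both in the direction the labels state; the sources used here do not place their probes relative to the deletions.

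**Figure D4:**
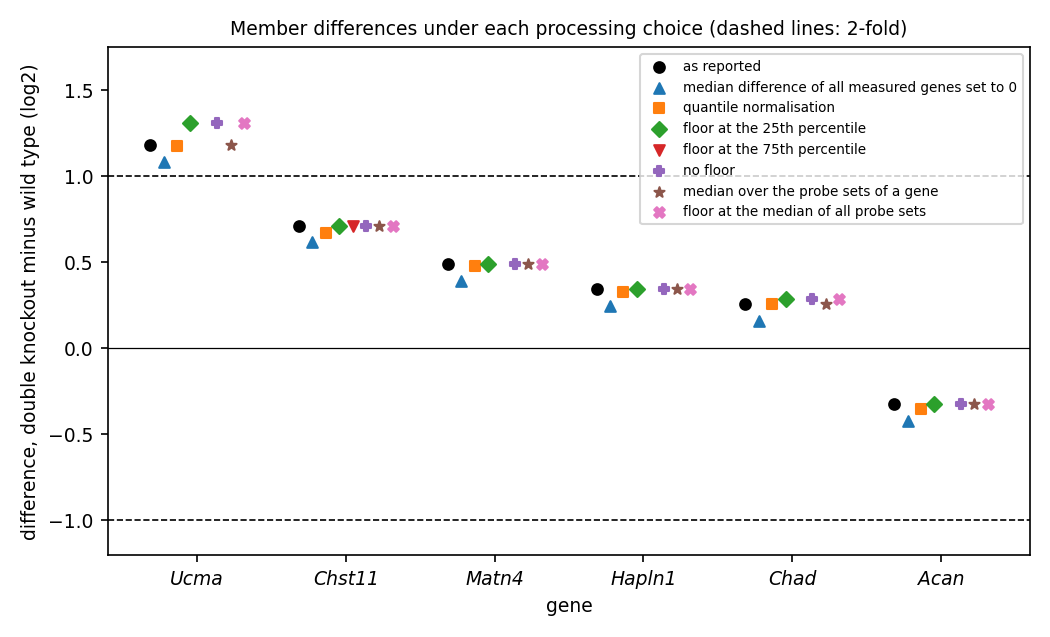
Difference between double knockout and wild type (log2, y axis) of the 6 measured genes (x axis) as reported (black) and under each alternative in which the gene was measured, with dashed lines at 2-fold. Ucma stays above 2-fold in each setting in which it was measured, between 1.08 and 1.31, Acan stays between -0.42 and -0.32, and at the 75th percentile floor (red triangle) Chst11 alone remains.

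The promoters of Ucma, the gene with the largest difference, and of Acan, the measured gene that was lower, are shown to contrast the sequence upstream of the starts of the genes at both ends of the range. They are the 250 bases before the annotated start in RefSeq (GRCm38.p6), chr2:4975872-4976121 on the plus strand for Ucma and chr7:79052976-79053225 on the plus strand for Acan, with CpG dinucleotides in capitals.
Ucma: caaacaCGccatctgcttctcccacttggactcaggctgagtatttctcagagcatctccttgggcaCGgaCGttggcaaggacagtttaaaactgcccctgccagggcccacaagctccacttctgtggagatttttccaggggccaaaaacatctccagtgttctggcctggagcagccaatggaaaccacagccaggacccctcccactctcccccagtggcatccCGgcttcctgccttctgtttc
Acan: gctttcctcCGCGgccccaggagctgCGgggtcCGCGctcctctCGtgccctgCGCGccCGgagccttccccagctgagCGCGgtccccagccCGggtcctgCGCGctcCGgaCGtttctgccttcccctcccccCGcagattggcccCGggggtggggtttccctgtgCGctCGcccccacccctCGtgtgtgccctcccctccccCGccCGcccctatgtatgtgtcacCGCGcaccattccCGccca
The Ucma stretch holds 4 CpG dinucleotides and is 56.4% G and C, and the Acan stretch holds 26 and is 74.4% G and C. RefSeq windows of 300 bases, 250 before and 50 after a start, were at hand for 9 of the 10 genes, in 10 windows. The SOX core motifs ACAAAG and ACAATG, searched on both strands, occurred in 0 of these 10 windows, and 28.6% of all 32851 windows held at least 1 of them. The TATA motif TATAAA, also on both strands, occurred in 1 of the 10, that of Chad, 28 bases before the start, and in 13.6% of all windows. The median window held 7 CpG dinucleotides, and those of Acan and Chst11 held 31 and 34, whereas those of Cnmd, Hapln1 and Ucma held 1, 3 and 4. These letters describe the windows and say nothing of binding.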

How the data were processed

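Total RNA (6 µg per sample, per the labels' protocols) was labelled with biotin and hybridised to 1 array per genotype. The authors summarised each probe set into 1 value, and the deposited log2 signals cover 35557 probe sets; the log base was read from their range (1.42 to 13.35). MAS5 is named, without a version, per the submitters' processing notes. The sources used here state neither a genome build nor how logs were taken, background was corrected and arrays were normalized. The medians were 5.48 and 5.45 and the sorted values differed by at most 0.22, so the arrays were compared as deposited.

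Gene names were taken from GEO's platform annotation: 21789 probe sets named 1 gene, 1621 several and 12147 none, and those of several or no genes were left out. All 10 genes matched RefSeq symbols by identifier. Where a gene had several probe sets, the one with the brightest mean linear signal was used. The number of arrays limits the precision. Processing used Python 3.11.15, pandas 2.3.3 and NumPy 2.4.6, and was tested on simulated data.

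Alternatives were quantile normalisation, a shift of all measured genes to a median difference of 0, the median over a gene's probe sets, lower (25th percentile), higher (75th percentile) or no floors, and thresholds of 3-fold and 1.5-fold; an alternative chosen after seeing the data took all probe sets for the median that set the floor. Beyond the 10 genes, lists of up to 8 genes could be named whole, and longer lists by the 4 largest differences above both floors, up to 2 bounds and the 2 brightest, unless said otherwise. The genes and lists were chosen with earlier results of these data known.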

Additional observations from a re-analysis of the deposited data

How the results depend on the processing

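With 1 array per genotype no replicate could be left out. No paired analysis was possible because each genotype has 1 array. Of 83 values recomputed under 9 alternatives, 76 stayed within the SD between probe sets or within 1.5 times the count. No value of a gene past 2-fold changed sign, which concerns Ucma alone. Part of this tally was fixed in advance. Each of the 10 genes had 1 probe set, so the median over probe sets could not change their values. The shift to a median of 0 was 0.098, under the SD of 0.23, so it could move no difference. The sorted values of the arrays differed by at most 0.22, also under the SD, so quantile normalisation could move none either. With 0 genes at least 2-fold lower, the count of 0 at least 3-fold lower was fixed too. Lower floors could not change genes above both floors. The floor at the 75th percentile was the strictest: 1 of the 10 genes remained measured, Chst11, so 1 was higher, 0 were at least 2-fold higher, and the median difference was 0.71. Of all genes measured at that floor, 67.2% were higher and 0.39% at least 2-fold higher. That setting tests fewer genes by construction. Without a floor, 8 of the 10 genes were higher, beside 58.4% of all genes. At a threshold of 1.5-fold, 2 genes were called higher, beside 3.07% of all measured genes, and at 3-fold 0, beside 0.173%. Under the 5 settings that kept Ucma measured with a floor, and without a floor, it was between 1.08 and 1.31. Lowering the floor to the 25th percentile brought in Comp and Cnmd, so 8 genes were measured, with a median of 0.31. Low signal limits what can be said of Matn1, Matn3, Comp and Cnmd, for which no change, or a change below detection, cannot be told apart.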
